A study of Homo sapiens with 12 samples.

Results

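Toll-like receptors are membrane proteins that bind conserved parts of microbes, and NOD1 and NOD2 are their counterparts in the cytosol, which bind fragments of bacterial peptidoglycan. Most Toll-like receptors and the IL-1 receptor pass their signal through the adaptor MYD88, TLR3 uses another adaptor, and NOD1 and NOD2 use the kinase RIPK2, and all these routes lead to NF-κB. Tubular epithelial cells of the kidney are known to carry several of these receptors, so the genes of the sensing and of the IL-1β route meet in the same cells. The 10 genes described here are TLR1 to TLR6, NOD1, NOD2, RIPK2 and MYD88, chosen by the gene name that the array annotation gives to its probes. They are represented by 12 of the 34127 different probes of the array, of which TLR4 and TLR5 have a pair each.

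RNA of the human proximal tubular cell lines HK-2, immortalized with papillomavirus genes, and RPTEC/TERT1, immortalized with telomerase, was hybridized to 12 one-color oligonucleotide arrays. After 24 h of starvation from serum and supplements, the cells were kept for 24 h without a ligand (control), with the pro-inflammatory cytokine IL-1β (10 ng/mL) or with Empa (empagliflozin, 500 nM), an inhibitor of the sodium-glucose cotransporter SGLT2. Each line and treatment was measured on 2 arrays, which the methods of the study call biological duplicates. The arrays lie on 4 slides, and every slide carries the control and both ligands for 1 line and 1 replicate number. The comparisons ask how each ligand alone moved these genes from the control of the same slide, and no array carried both ligands.

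The line of an array was taken from its title, while the source name gives HK-2 throughout. Across probes, RPTEC/TERT1 replicate 2 resembled HK-2 replicate 1, and RPTEC/TERT1 replicate 1 resembled HK-2 replicate 2, within each treatment (r between 0.960 and 0.984), more than the arrays within a line label resembled each other (r between 0.852 and 0.880). Values are therefore given by slide, and a line name stands for the label of the arrays. The 75th percentile of an array lay between 298 and 765 signal units, and between 52.7% and 63.1% of its probes were well above background. Of the epithelial markers, KRT8, KRT18 and EPCAM were well above background on all 12 arrays, CDH1 on 6. Of 12 proximal tubule markers 5 were so on every array, among them LRP2 and SLC5A2, while HNF4A and SLC5A1 were so on none. Of the myeloid markers, whose cells are known for high levels of these receptors, CD68 (28.3 to 894), TYROBP (32.5 to 786) and PTPRC (20.9 to 83.3) were well above background on all 12 arrays, ITGAM and AIF1 on 11, CSF1R on 6 and CD163 on none. The summed signal of the 7 myeloid markers ranged from 511 to 1618 on control, from 1042 to 1403 on IL-1β and from 532 to 1007 on Empa arrays, and its part in the values below was not tested. Of 4 endothelial markers CDH5 was well above background on 12 arrays and KDR on none. Of 4 fibroblast markers COL1A1 was so on 11 arrays, DCN on 8 with signals up to 3013, LUM on 6 with signals up to 1790, and PDGFRB on none. The summed signal of the 4 fibroblast markers ranged from 62.8 to 4077 on control, from 57.4 to 4838 on IL-1β and from 23.6 to 2561 on Empa arrays, and that of the 4 endothelial markers from 67.1 to 105 on control, from 65.0 to 118 on IL-1β and from 60.5 to 165 on Empa arrays. Their part in the values was not tested either.

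Of the probes, those of 60 bases in the coding sequence of TLR3, TLR5 and TLR4 are shown, because the readings of these genes rest on what such a probe can bind. Those of TLR3 and TLR5 gave signals that differed between slides, and that of TLR4 stayed at background. They are printed as the array files give them, 5′ to 3′, with no part set in capitals.
TLR3: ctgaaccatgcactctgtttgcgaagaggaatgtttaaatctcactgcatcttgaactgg
TLR5: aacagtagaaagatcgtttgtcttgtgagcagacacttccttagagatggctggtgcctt
TLR4: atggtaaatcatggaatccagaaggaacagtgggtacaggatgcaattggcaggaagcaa
On the hg19 build of the array annotation, they lie at chr4:187005890-187005949 on the plus strand, chr1:223284067-223284126 on the minus strand and chr9:120476856-120476915 on the plus strand.

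Promoter sequence from RefSeq (GRCh38.p14) was used for 8 of the 10 genes. The promoters of TLR1 and RIPK2 were not searched, so the counts below say nothing about motifs in these genes. Within the 250 bases before the start, both strands were searched for the NF-κB consensus and for TTCNNNGAA, the spaced palindrome known as the STAT binding motif, which reads alike on both strands. The NF-κB consensus was found in 9.96% of all 35116 promoters and in none of the 8 genes. TTCNNNGAA was found in 6.57% of all promoters, in those of TLR3 and MYD88, and in no other of the 8 genes. The stretches before the start of both genes are shown with this motif in capitals, at chr4:186068906-186069155 and chr3:38138411-38138660, each on the plus strand.
TLR3: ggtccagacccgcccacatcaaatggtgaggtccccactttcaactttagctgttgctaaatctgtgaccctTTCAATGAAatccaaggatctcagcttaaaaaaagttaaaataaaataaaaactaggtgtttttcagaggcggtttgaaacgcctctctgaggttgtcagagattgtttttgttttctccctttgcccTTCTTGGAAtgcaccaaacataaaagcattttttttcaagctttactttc
MYD88: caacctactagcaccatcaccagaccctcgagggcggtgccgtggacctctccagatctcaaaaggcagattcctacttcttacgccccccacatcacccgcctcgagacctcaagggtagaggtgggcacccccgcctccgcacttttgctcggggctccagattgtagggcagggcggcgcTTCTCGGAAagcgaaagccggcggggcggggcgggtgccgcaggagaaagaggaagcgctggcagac
In TLR3 the motif begins 178 and 50 bases before the start, and 0.356% of all promoters hold it 2 times or more. In MYD88 it begins 67 bases before the start. A match is a description of these letters and not of a bound site.

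Values below are the background-subtracted signal of a probe after each array was scaled to a common 75th percentile of 419 signal units, and log2 differences were taken after values under 1 unit were set to 1. "Well above background" is the mark that the scanner software gives to a spot, and a probe with several spots carries it when most of them do. Folds given as "at least" rest on the lowest signal with this mark over all probes of the dim array, or on the dim signal if higher. They are not strict limits for a single probe. Signals of different probes cannot be set against each other, so each gene is compared with itself. By this mark, TLR2, TLR3, TLR5, RIPK2 and MYD88 were measured on all 12 arrays by at least 1 probe, NOD1 on 6, TLR1 on 2 and NOD2 on 1. TLR4 and TLR6 were not well above background on any array.

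**Figure D1:**
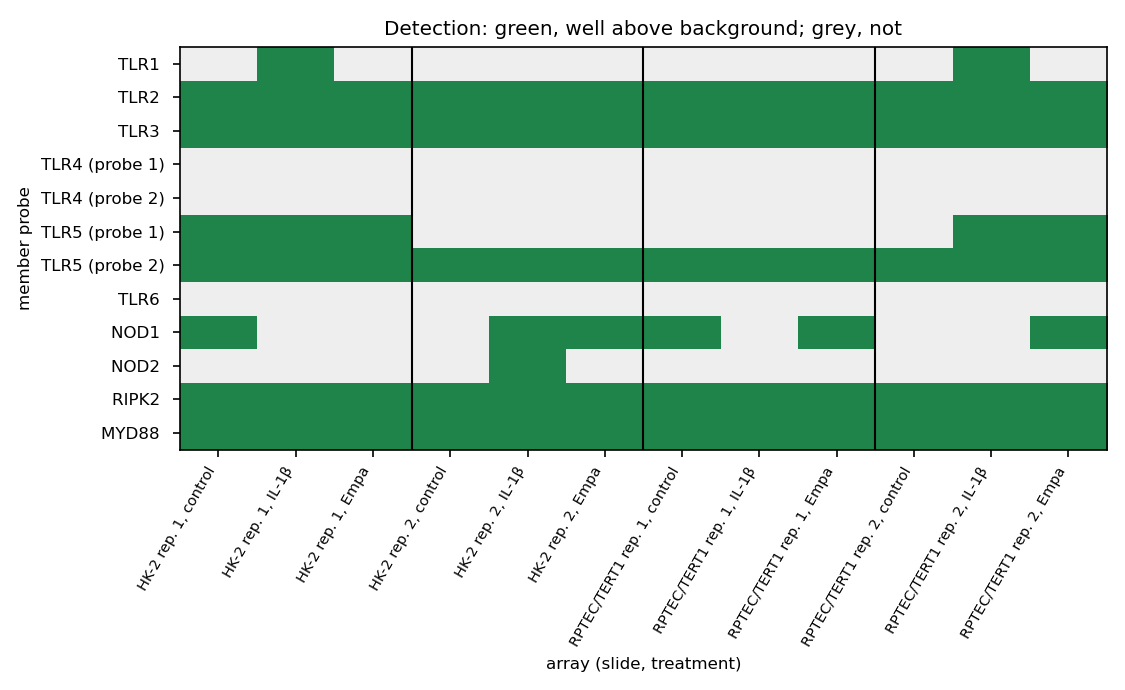
Detection of the 12 probes (rows) on the 12 arrays (columns, grouped by slide), with green for a probe well above background and grey for one that was not. TLR2, TLR3, RIPK2, MYD88 and the second TLR5 probe were detected on all 12 arrays, and TLR4 and TLR6 on none.

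RIPK2, the kinase that NOD1 and NOD2 recruit, had the largest mean difference under IL-1β among the genes of this group that were measured on every array. Its probe lies at chr8:90802345-90802404 (hg19, plus strand). On the slide of HK-2 replicate 1 its signal was 904 without a ligand and 8244 with IL-1β, and on that of RPTEC/TERT1 replicate 2 it was 1038 and 9204. The slide of HK-2 replicate 2 gave 1442 and 2969, and that of RPTEC/TERT1 replicate 1 gave 1488 and 2346. All 4 IL-1β arrays were therefore above all 4 controls, by 9.12-fold, 8.86-fold, 2.06-fold and 1.58-fold in the order given. The slides on which IL-1β gave the higher signal also had the lower controls.

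On the log2 scale the difference of RIPK2 was 2.01 ± 1.35 (SD, n = 4 slides), and between 202 and 910 of the 15717 genes tested had a larger one on any 1 slide. Under Empa its signal was 899.8, 1414, 1526 and 881 on the slides of HK-2 replicates 1 and 2 and RPTEC/TERT1 replicates 1 and 2. These values stayed close to the controls, with a mean log2 difference of -0.06 ± 0.12 (SD, n = 4 slides) and both directions among the slides.

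**Figure D2:**
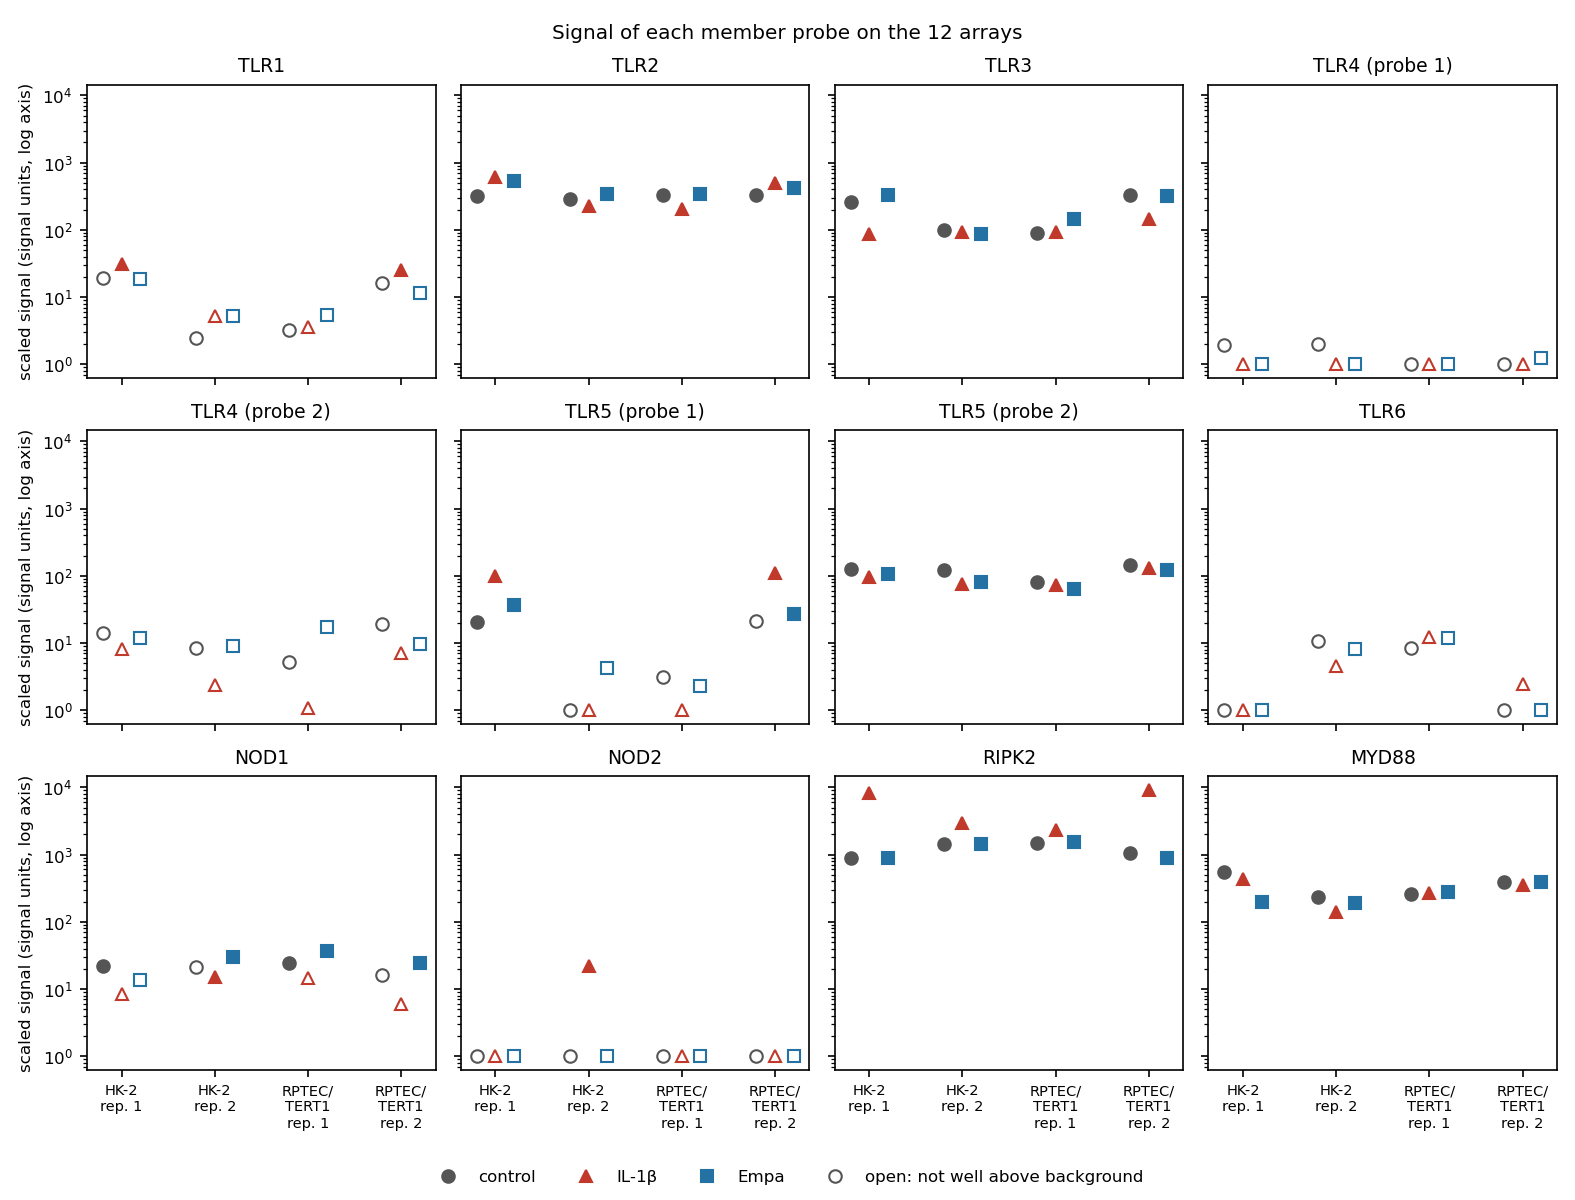
Scaled signal (signal units, log axis) of each probe on the 12 arrays, by slide, with filled symbols for arrays well above background, open symbols for others, and values under 1 drawn at 1. RIPK2 signals with IL-1β lay between 2346 and 9204, above the controls between 904 and 1488, while TLR2 and TLR3 lay further from their controls on some slides than on others.

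RIPK2 was not past the threshold when the 6 groups were compared without a block, with a log2 fold change of 2.01 (SE 0.53) over both lines and an adjusted p of 0.303 (limma with Benjamini-Hochberg adjustment over 15717 genes). With the replicate number of each line, which is also the slide, as a block, its adjusted p was 0.0782. A fit with the same block and 1 effect per treatment over the 4 slides, which does not use the line labels, gave 2.01 (SE 0.47) and an adjusted p of 0.0267. In this last fit RIPK2 was no longer past the threshold without any 1 of 5 arrays, namely HK-2 control replicate 1, HK-2 control replicate 2, HK-2 IL-1β replicate 1, RPTEC/TERT1 control replicate 2 and RPTEC/TERT1 IL-1β replicate 2, with adjusted p values up to 0.102. On the arrays labelled HK-2 the log2 fold change was 2.12 (SE 0.75), on those labelled RPTEC/TERT1 1.90 (SE 0.75), and their difference of -0.21 (SE 1.05) had an adjusted p of 1. Each label holds 1 slide with a larger and 1 with a smaller RIPK2 difference, so this contrast averages over them.

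NOD1 and NOD2, which sense peptidoglycan, were near the detection limit. The NOD1 probe lies at chr7:30464987-30465046 (hg19, minus strand). It gave 22.2, 21.3, 24.5 and 16.1 on the controls of HK-2 replicates 1 and 2 and RPTEC/TERT1 replicates 1 and 2, and 8.34, 15.3, 14.8 and 6.01 on the IL-1β arrays in the same order. IL-1β was thus below the control on each slide, and every IL-1β array was below every control, but only 2 controls and 1 IL-1β array were well above background. On the slides of HK-2 replicate 1 and RPTEC/TERT1 replicate 1, where the control alone was well above background, the IL-1β array was at least 2.67-fold and at least 1.66-fold lower.

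With Empa, NOD1 gave 13.5, 29.7, 36.7 and 24.7 in the same order, of which all but the first were well above background. These signals were above the control on 3 slides and below it on that of HK-2 replicate 1. NOD1 entered the fits only through the Empa arrays labelled RPTEC/TERT1 (36.7 and 24.7), the only group with both arrays well above background. Its place in the fits thus rests on a group where it read high. The IL-1β difference of NOD1 was -1.01 ± 0.48 (SD, n = 4 slides) on the log2 scale. Its adjusted p was 0.618 without a block, 0.0647 with the block and 0.0368 with the block and 1 effect per treatment (limma). In that last fit NOD1 stayed past the threshold in 3 of the 12 runs that left out 1 array, and did not pass with quantile normalization (adjusted p = 0.0902), normexp (-0.15, adjusted p = 0.324) and the authors' table (-0.11, adjusted p = 0.404).

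NOD2, with its probe at chr16:50766770-50766829 (hg19, plus strand), was well above background on the array of HK-2 IL-1β replicate 2 alone, with a signal of 22.2. On the other 11 arrays its signal was below 0, between -8.44 and -0.527. The control of the same slide gave -3.33, and the other 3 slides have no such difference. Against the lowest signal well above background on that control array, 8.16, the IL-1β array was 2.72-fold higher. This is not a strict limit for NOD2, since NOD1 with a signal of 21.3 was not well above background on that control array.

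TLR2, a receptor for bacterial lipoproteins that pairs with TLR1 or TLR6, was measured on every array by a probe at chr4:154626406-154626465 (hg19, plus strand). Its controls gave 320.3, 286, 332 and 329.9 on the slides of HK-2 replicates 1 and 2 and RPTEC/TERT1 replicates 1 and 2. With IL-1β it gave 617, 229.7, 202 and 493, which is above the control on the first and last slide and below it on the others. The log2 differences were 0.95, -0.31, -0.72 and 0.58, with a mean of 0.12 ± 0.77 (SD, n = 4 slides), so the spread between slides exceeded the mean. Each line label holds a slide of both directions.

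Empa gave 527, 341, 343 and 414 for TLR2, above the control on all 4 slides, by between 1.03-fold and 1.65-fold. The mean log2 difference was 0.34 ± 0.28 (SD, n = 4 slides), and its adjusted p was 1 without a block, 0.695 with the block and 0.591 with the block and 1 effect per treatment (limma). The partners of TLR2 were dim. Their probes lie at chr4:38798013-38798072 (TLR1) and chr4:38828533-38828592 (TLR6), both on the minus strand of hg19. TLR1 was well above background on 2 arrays, with 31.2 on HK-2 IL-1β replicate 1 against a control of 19.3 and with 25.6 on RPTEC/TERT1 IL-1β replicate 2 against 16.1. In these pairs the IL-1β array was at least 1.62-fold and at least 1.59-fold higher, while on the other slides TLR1 lay between 2.45 and 5.5 on all arrays. TLR6 ranged from -2.28 to 12.4 over the 12 arrays, never well above background.

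TLR3, which senses double-stranded RNA in endosomes, gave 263, 101, 89.6 and 333 on the controls of HK-2 replicates 1 and 2 and RPTEC/TERT1 replicates 1 and 2. With IL-1β it gave 86.3, 91.4, 93.3 and 145 in the same order. It was thus 0.328-fold and 0.437-fold of the control on the slides with the high controls, and within 0.904-fold and 1.04-fold of it on the others, so the 4 IL-1β arrays spanned a narrower range than the controls. The mean log2 difference was -0.72 ± 0.81 (SD, n = 4 slides), with an adjusted p of 0.964 without a block, 0.273 with it and 0.170 with 1 effect per treatment (limma). With Empa it gave 332, 87.3, 146 and 324, above the control on 2 slides and below it on 2, with a mean log2 difference of 0.20 ± 0.41 (SD, n = 4 slides).

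TLR5, the receptor for flagellin, has 2 probes whose starts lie 21760 bases apart, and they disagreed. The probe printed above, which lies in coding sequence, was well above background on 5 arrays, all on the slides of HK-2 replicate 1 and RPTEC/TERT1 replicate 2. There it gave 20.7 and 21.6 on the controls, 101 and 108 with IL-1β, and 36.8 and 26.9 with Empa. IL-1β was 4.85-fold the control on the first slide and at least 5.01-fold higher on the second, where the control was not well above background. On the other 6 arrays this probe lay between -5.76 and 4.26.

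The second TLR5 probe, at chr1:223305827-223305886 (hg19, minus strand), was measured on all 12 arrays and stood for the gene in the fits. Its controls gave 125, 121, 80.4 and 144 on the slides of HK-2 replicates 1 and 2 and RPTEC/TERT1 replicates 1 and 2. With IL-1β it gave 96.9, 74.9, 72.1 and 129, and with Empa 108, 81.2, 63.3 and 120.4, so both ligands gave lower signals on each slide. The mean log2 difference was -0.34 ± 0.25 (SD, n = 4 slides) with IL-1β and -0.35 ± 0.16 (SD, n = 4 slides) with Empa. Neither passed, with adjusted p values of 0.169 and 0.404 in the fit with the block and 1 effect per treatment (limma). The direction of TLR5 under IL-1β therefore depends on the probe, and what the annotation places at the second probe was not analysed here.

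TLR4, the receptor for lipopolysaccharide, was not well above background with either probe. The printed probe ranged from -3.78 to 2.01 and the other, at chr9:120479236-120479295 (hg19, plus strand), from 1.09 to 18.9. The latter was lower with IL-1β than with control on all 4 slides, as values without a detected level on either side, so no fold is given. Of the co-receptors and chaperones of these receptors, LY96, the partner of TLR4 that completes its lipopolysaccharide pocket, had the highest log2 fold change with IL-1β, 1.36 (SE 0.51, adjusted p = 0.553 without a block). Its adjusted p was 0.0943 with the block and 0.0451 with the block and 1 effect per treatment. In that last fit LY96 was the only 1 of the 5 tested genes of this list that passed, beside 12.4% of all genes called. It was well above background on 8 arrays. UNC93B1, which carries TLR3 to endosomes, had the lowest, -0.42 (SE 0.97, adjusted p = 1 without a block).

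MYD88, the shared adaptor, was measured on every array by a probe at chr3:38183932-38183991 (hg19, plus strand). Its controls gave 551, 230.4, 260.0 and 391 on the slides of HK-2 replicates 1 and 2 and RPTEC/TERT1 replicates 1 and 2. IL-1β gave 437, 139, 264 and 356, a lower signal on 3 slides and a nearly equal one on that of RPTEC/TERT1 replicate 1. The mean log2 difference was -0.29 ± 0.32 (SD, n = 4 slides). Empa gave 200.2, 189.5, 281 and 389.8, and the single large difference was that of HK-2 replicate 1, where Empa was 0.363-fold of the control. On the other slides Empa gave between 0.823-fold and 1.08-fold of the control, and the mean log2 difference was -0.41 ± 0.72 (SD, n = 4 slides). The adjusted p of MYD88 without a block was 1 for both ligands (limma), and 0.529 for IL-1β and 0.548 for Empa with the block and 1 effect per treatment.

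**Figure D3:**
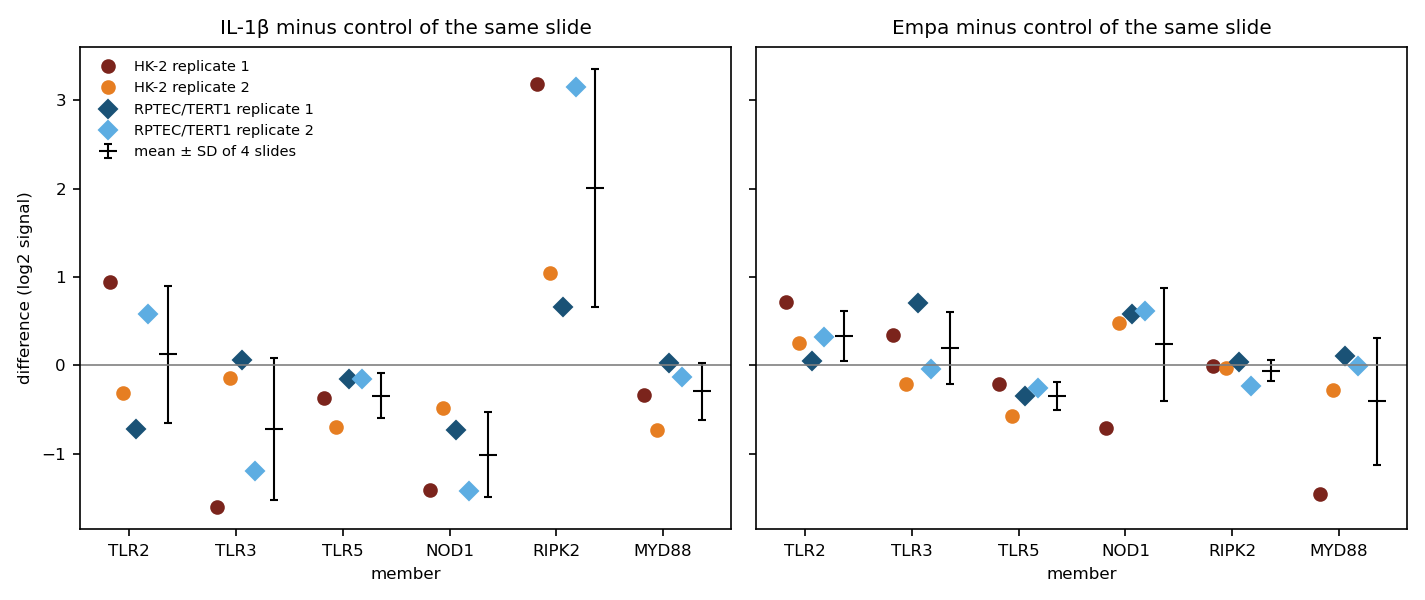
Log2 difference between the IL-1β (left) or Empa (right) array and the control array of the same slide for the 6 genes tested, with circles for slides labelled HK-2, diamonds for RPTEC/TERT1 and black bars for the mean ± SD of 4 slides. RIPK2 lay above 0 with IL-1β on 4 slides, TLR5 (second probe) and NOD1 (near background) below 0 on 4, and with Empa RIPK2 stayed between -0.24 and 0.04.

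For tests across the array each gene was represented by 1 probe, and this probe had to be well above background on 2 arrays of some group. This kept 15717 genes, among them 6 of the 10 described here (TLR2, TLR3, TLR5, NOD1, RIPK2 and MYD88). TLR1, TLR4, TLR6 and NOD2 did not meet this condition. NOD1 met it only through the Empa arrays labelled RPTEC/TERT1, where its signal was high, so its results below are not independent of the condition. Without a block, 0 of the 6 passed the threshold of 0.05 on the adjusted p (limma) for IL-1β as the mean of both lines, beside 0.0509% of all genes, and 2 of the 6 (RIPK2 and NOD1) had an unadjusted p under 0.05. With the block 0 of the 6 passed beside 5.5% of all genes, and again 2 had an unadjusted p under 0.05. With the block and 1 effect per treatment 2 of the 6 passed, RIPK2 higher and NOD1 lower, beside 12.4% of all genes.

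On the arrays of a single line label, 0 of the 6 passed for IL-1β without a block, beside 0% of all genes in each line, with 1 gene (RIPK2) at an unadjusted p under 0.05 in each. With the block 0 of the 6 passed, beside 0.255% of all genes for HK-2 and 0.261% for RPTEC/TERT1, with 2 genes (RIPK2 and NOD1) at an unadjusted p under 0.05 in each. For Empa 0 of the 6 passed over both lines and in each line, without and with the block, beside 0% of all genes, and none had an unadjusted p under 0.05. With 1 effect per treatment 0 of the 6 passed for Empa beside 0.00636% of all genes, and TLR5 had an unadjusted p of 0.0439. The effects of IL-1β and of Empa did not differ between the line labels for any of the 6 at the threshold (0 of 6 without and with the block, none at an unadjusted p under 0.05, limma). This does not show that they were alike. Each line label holds 1 slide of each pair of slides that resembled each other, so this contrast cannot show a difference between those pairs.

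By direction alone, 1 of the 6 genes (RIPK2) was higher with IL-1β than with control on all 4 slides, beside 15% of all genes tested, and 2 (TLR5 and NOD1) were lower on all 4, beside 24.9%. For Empa, 1 (TLR2) was higher on all 4 slides beside 12.5% and 1 (TLR5) was lower on all 4 beside 13.9%. TLR5 stands here for its second probe, while the other probe had mean differences of 0.74 with IL-1β and 0.70 with Empa. On no slide was NOD1 well above background on both the control and the IL-1β array. Both ligands were set against the same controls. The median log2 fold change of all genes tested was -0.11 with IL-1β and -0.02 with Empa over both lines.

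RIPK2 was next set beside other genes of the routes that these receptors share with the IL-1 receptor. Of 17 adaptors and kinases of Toll-like and IL-1 receptor signalling, 15 were tested, and none passed without a block. With the block 2 rose, 1 fell and 12 did not pass, beside 5.5% of all genes called. With the block and 1 effect per treatment 3 rose and 1 fell, beside 12.4% of all genes, and the gene added was IL1R1, the IL-1β receptor itself (1.24, SE 0.26, adjusted p = 0.0176). The median log2 fold change of the 15 was 0.25 without a block, against -0.11 over all genes. IRAK2, a kinase downstream of MYD88, rose by 3.53 on the log2 scale (SE 0.63, adjusted p = 0.0264, limma with the block). IL1RAP, the second chain of the IL-1 receptor, rose by 1.55 (SE 0.21, adjusted p = 0.0120), and SIGIRR, an inhibitory receptor of the family, fell by 0.94 (SE 0.17, adjusted p = 0.0252). IRAK2 had differences of 5.35 and 4.89 on the slides of HK-2 replicate 1 and RPTEC/TERT1 replicate 2, while the slides of HK-2 replicate 2 and RPTEC/TERT1 replicate 1 gave 2.31 and 1.58, the same order of slides as RIPK2. IL1RAP was more even, between 1.08 and 1.83.

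Of 10 partners of NOD signalling 7 were tested, with a median log2 fold change of 0.34. None passed without or with the block, beside 0.0509% and 5.5% of all genes. With the block and 1 effect per treatment 1 of the 7 rose, BIRC3 (adjusted p = 0.0221), beside 12.4% of all genes called. This ubiquitin ligase, which modifies RIPK2, had the highest value, 3.69 (SE 0.93, adjusted p = 0.0679 with the block), and ERBB2IP, which binds NOD2, the lowest, -0.40 (SE 0.17, adjusted p = 0.201 with the block). Of 10 inflammasome and other NLR genes 6 were tested, and 1 rose with the block, beside 5.5% of all genes called. This was CASP1, the protease that matures IL-1β, by 3.36 on the log2 scale (SE 0.46, adjusted p = 0.0120). Its signals were well above background on 3 arrays only, so that its size depends on the floor. CASP1 entered the fits only through IL-1β arrays, where it was high. Its rise and its p-value are therefore not independent of this filter. Of 10 genes of the interferon route and RNA sensing, to which TLR3 belongs, 9 were tested, 1 rose with the block and none fell, beside 5.5% of all genes called. This was TRAF3, an adaptor below TLR3, with a log2 fold change of 1.88 (SE 0.31, adjusted p = 0.0216). With 1 effect per treatment TBK1, a kinase of this route, also rose (0.53, SE 0.14, adjusted p = 0.0349), beside 12.4% of all genes called. The RNA sensors DDX58 and IFIH1, which serve in the cytosol as TLR3 does in endosomes, were at -0.64 and -0.33 and did not pass.

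**Figure D4:**
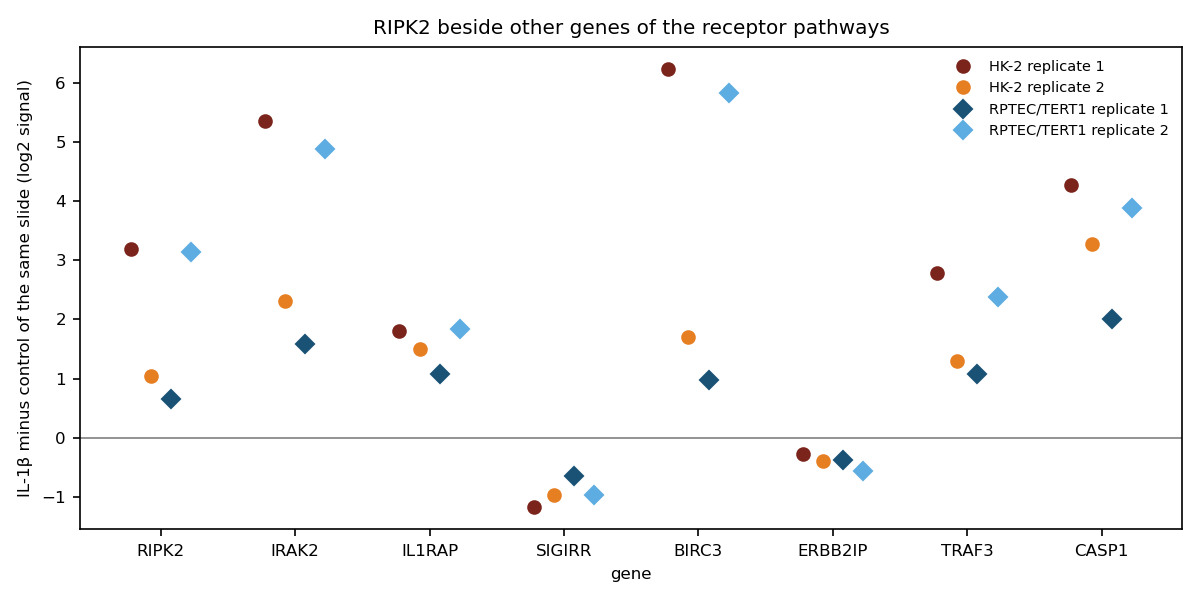
Log2 difference between the IL-1β and the control array of each slide for RIPK2 and 7 genes of the receptor routes, with circles for slides labelled HK-2 and diamonds for RPTEC/TERT1. RIPK2, IRAK2, IL1RAP, BIRC3, TRAF3 and CASP1 had their higher values on the slides of RPTEC/TERT1 replicate 2 and HK-2 replicate 1. SIGIRR and ERBB2IP did not, and CASP1 was well above background on 3 arrays only.

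A list of 8 known IL-1β response genes was used to describe the stimulation. It was chosen with earlier results of these data known. CCL2, CXCL1, ICAM1, SOD2 and LCN2 are also in the study's own list of genes raised by IL-1β on these arrays. The list is therefore not an independent check. All 8 were higher with IL-1β on all 4 slides, beside 15% of all genes tested, and 6 rose in the fit with the block, beside 5.5% of all genes called. The differences of IL6 were 9.41, 4.87, 4.56 and 8.95 on the slides of HK-2 replicates 1 and 2 and RPTEC/TERT1 replicates 1 and 2, and those of CXCL8, CXCL1 and CCL2 ranked the same pair of slides above the other. CCL2 and CXCL1 were saturated on 2 arrays each, and CCL2 was well above background on 8 arrays, which limits the sizes of their differences. RIPK2 ranked the same pair of slides above the other. The myeloid marker CD68 had log2 differences with IL-1β of 2.57 and 2.19 on the slides of HK-2 replicate 1 and RPTEC/TERT1 replicate 2, the same pair, and of -0.60 and 0.0063 on those of HK-2 replicate 2 and RPTEC/TERT1 replicate 1 (adjusted p = 0.441 with the block and 0.349 with the block and 1 effect per treatment, limma). On the slides of HK-2 replicate 1 and RPTEC/TERT1 replicate 2, no other tested myeloid marker was higher with IL-1β on both. ITGAM gave -1.85 and -0.13 there, PTPRC -0.24 and -0.51, AIF1 -0.58 and 0.013, and TYROBP -1.27 and 1.32. The part of myeloid RNA in the value of RIPK2 was not tested. Of the Toll-like receptors left out above, TLR7 and TLR10 were not well above background on any array. TLR8 was so on 3 controls, 1 Empa array and no IL-1β array, and on the slides of these 3 controls the IL-1β array was at least 2.79-fold to at least 8.56-fold lower. These slides were picked by their detected control. On that of RPTEC/TERT1 replicate 2, with neither array detected, control gave 5.18 and IL-1β 7.84. Empa gave 103 against a control of 30.2 on that of HK-2 replicate 1 and was below the control on each other slide. TLR8 entered the fits only through the controls labelled HK-2, where it was high. TLR9 was well above background on 6 arrays, with signals between 5.89 and 21.3. Neither passed in any of the 3 fits.

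The genes whose pattern was most like that of RIPK2 and TLR3, as the 2 genes with the largest mean IL-1β difference among those measured on all 12 arrays, were found by Pearson's r over the 12 arrays after each slide was centered. For RIPK2 they were KYNU, NETO1, WTAP, NMB and an unnamed transcript (ENST00000453177), with r between 0.994 and 0.996. WTAP, measured on all 12 arrays, had IL-1β differences of 3.19 and 3.09 on the slides of HK-2 replicate 1 and RPTEC/TERT1 replicate 2, against 1.10 and 0.69 on the others. KYNU was well above background on 4 arrays and NETO1 on 8, so their differences rest in part on the floor. For TLR3 they were PRKCQ-AS1, HAUS5, HYKK, HIRIP3 and PRMT7, with r between 0.959 and 0.978, all measured on every array. The 12 arrays share slides and controls, so these values describe likeness and were not tested.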

How the data were processed

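RNA of 12 cultures was measured on one-color arrays, and the line, treatment and replicate were taken from the titles. The authors deposited, for each array, the intensity of every spot as read by Agilent's Feature Extraction software, background-subtracted and detrended per the file headers and not normalized between arrays, with marks for outliers and for signals well above background. A further table that the authors deposited holds log2 values, described as quantile-normalized, and was used as an alternative. Array annotation is on hg19.

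Outlier spots were masked, control spots (1377) left out and spots of a probe averaged, which left 33483 probes with a value on all 12 arrays. Signals were scaled to the 75th percentile, floored at 1 unit and put on the log2 scale. Since 11.5% to 16.2% of an array's signals were at or below 0, dim probes depend on this floor. Each gene was represented by 1 probe, the brightest of those marked as well above background on the 2 arrays of any group. The 12 arrays were fitted together in limma 3.58.1 (R 4.3.3), as 6 groups without a block, with Benjamini-Hochberg adjustment and a threshold of 0.05. Deviations of arrays on the same slide from their group means correlated with r between 0.627 and 0.895, and each slide is 1 hybridization unit, so replicate numbers pair the arrays, and blocked values are given. Where 1 array of a slide was not well above background, the brighter signal was divided by the higher of the dim signal and the lowest signal well above background on the dim array ("at least"). That lowest signal is over all probes, and a single probe can read higher without the mark.

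All 10 genes are named. From the other lists, genes past the threshold without or with the block were named, at most 4 per list by size, or else the highest and lowest. DDX58, IFIH1, TLR7 to TLR10 and the marker genes were named to describe their lists, IL1R1 and TBK1 after their values were seen. The genes and lists were chosen with earlier results of these data known. Alternatives were quantile normalization, normexp (offset 50), the authors' table, floors and filters, the scan date or replicate as a block, the other probes, the methods' t-test and each array left out; their combinations with the block were chosen after seeing the data. Scripts were tested on simulated data. The number of arrays limits the precision. Without a block, p-values measure the spread between the arrays of a group. These lie on slides that resembled each other less than the matching slides across line labels. With the block, p-values measure how the differences within slides vary between slides. Either spread is that of these cultures alone. Figures were drawn with matplotlib 3.10.9.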

Additional observations from a re-analysis of the deposited data

Results flagged for a closer look

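Signals above the control of the same slide were seen with IL-1β for probes that stood outside the fits. TLR1 gave 31.2 for HK-2 IL-1β replicate 1 and 25.6 for RPTEC/TERT1 IL-1β replicate 2, where the controls gave 19.3 and 16.1 and were not well above background. The TLR5 probe in coding sequence gave 101 and 108 on the same slides, against controls of 20.7 and 21.6, of which the first was well above background. NOD2 gave 22.2 on the slide of HK-2 replicate 2, against a control of -3.33. These probes were well above background on both arrays of no group and so stood outside the fits. Without that filter TLR1 and NOD2 entered the test without a block, and neither passed the threshold.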

How the results depend on the processing

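For IL-1β over both lines the count of these genes past the threshold was 0 without a block and under each change of normalization, floor, filter, outlier spots, scan date and the replicate block alone. It was 2 with the replicate block and 1 effect per treatment, also with a floor of 5 units or with outlier spots kept, and 1 (RIPK2) in that fit with quantile normalization, normexp or the authors' table. Leaving out 1 array gave 0 to 2 over all fits. With the replicate block alone it gave 1 (RIPK2) without RPTEC/TERT1 IL-1β replicate 1 or without HK-2 IL-1β replicate 2. The counts for Empa, for single lines and for the difference between lines were 0 under every alternative run, and the methods' t-test for single lines also gave 0 before and after adjustment. For Empa, 1 gene kept 1 direction on all 4 slides in the authors' table, against 2. The other TLR5 probe reversed the mean difference of TLR5, to 0.74 for IL-1β and 0.70 for Empa, from values mostly near the floor. Over all genes tested, the count for IL-1β over both lines was 8 without a block and 0 to 2963 under the alternatives, 0 to 99 for HK-2 and 0 to 77 for RPTEC/TERT1. Quantile normalization moved the median of all genes for IL-1β in HK-2 from -0.18 to -0.057.

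Without 1 array or with the block in addition, the log2 fold change turned for TLR2 with IL-1β (-0.23 to 0.48), MYD88 with IL-1β (-0.71 to 0.12), TLR3 with Empa (-0.28 to 0.68), NOD1 with Empa (-0.043 to 0.52) and RIPK2 with Empa (-0.44 to 0.32), none of which passed. RIPK2 with IL-1β stayed between 1.35 and 2.67 over the alternatives run, TLR3 between -1.20 and -0.25 and NOD1 between -1.34 and -0.11. The cause was not tested. Signals near background limit NOD1, NOD2, TLR1, TLR4 and TLR6, and 2 arrays per group limit every test.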
